A study of Rattus norvegicus with 10 samples.

Results

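Tgfbi encodes transforming growth factor, beta induced, and the region of rat chromosome 17 around it was profiled here for methylated DNA in the hippocampus after status epilepticus (SE). All regions of the deposited tag count table that overlapped 250 kb of the rat genome RN4, chr17:13800000-14050000, were taken, which gave 122 of the 574544 regions of the table. The window was laid around 2 regions that the study assigned to Tgfbi, a gene body region at chr17:13908124-13908826, annotated there to exon, intron and a CpG island, and a promoter region at chr17:13938860-13939935, where a promoter is the sequence up to a few kb upstream of the transcription start. Both had been picked by the study for a difference in these same libraries, so a test on them is no independent evidence. The 8 libraries came from 4 control and 4 SE rats, all adult male Sprague-Dawley, with ages not given in the sources used here. SE was evoked in the SE rats by electrical pulses through an electrode in the left lateral amygdala and stopped with diazepam, and by the methods every stimulated rat later had spontaneous seizures. Control rats were sham operated, carried the same electrodes and received no pulses, so that anesthesia, surgery and implants were shared by both groups, whereas diazepam and seizures came with the stimulation. CA3 and dentate gyrus of the left hippocampus, labelled dorsal hippocampus, were taken 3 months after SE, with 1 library per rat. The tissue holds several cell types, and a change of methylation within cells and a change in the mix of cells cannot be told apart. DNA carries no expression of marker genes, so the tissue label was not checked. Control rat 2 and SE rat 7, which the labels mark as discarded, were left out except where named.

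Methylated fragments were captured with a protein that binds methylated double-stranded DNA, so a tag count measures captured DNA over a region, and not the methylation of single cytosines. The table totals of the 8 libraries were 5499370 to 7179519 tags. Normalized counts are CPM, counts scaled to a common total of tags in tested regions after TMM normalization, and regions were tested when their tags summed over the 8 libraries reached 70, the median of the table. In the window 75 regions passed this filter and 47 did not, with sums between 15 and 68 tags in the latter. A tested region of the window held a median of 13.75 tags per library, and single values ran from 3 to 58 tags, and at such counts the counting error alone makes single rats differ. Regions were tested with edgeR's quasi-likelihood test across all 291987 tested regions of the genome, and called at an unadjusted p below 0.01, a cut-off that the methods apply to differentially methylated regions. The gene list that put Tgfbi among genes with changes of methylation and expression was made with a stricter cut-off of 0.001. With the 8 libraries no region of the window reached it in edgeR's quasi-likelihood or exact test or in DESeq2. Over the genome, 0.204% of the tested regions reached it in the quasi-likelihood test, 0.0476% with higher and 0.157% with lower counts in SE rats.

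Tgfbi protein is secreted into the extracellular matrix, where its fasciclin-like domains bind collagens and integrins, and its gene is a classic target of transforming growth factor beta, a cytokine that acts in wound repair and in the response of glia to injury. Methylation of a CpG-rich promoter usually goes with low transcription, while methylation inside gene bodies is common in transcribed genes. Because the gene body region lies at the lower and the promoter region at the higher coordinate, the gene reads from high to low coordinates in RN4, and RefSeq also places it on the minus strand of the later build GRCr8. In GRCr8 the nearest protein-coding genes in order are Smad5, a signal transducer of bone morphogenetic proteins, beyond the end of Tgfbi and Lect2, a secreted chemotactic factor, upstream of its start. No RN4 annotation was used here, so these neighbours could not be placed among the captured regions.

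The promoter sequence shows how much substrate for methylation this start site offers. In the RefSeq promoter of GRCr8, chr17:7990064-7990363 on the minus strand, 300 bases that end shortly after the transcription start hold 29 CpG dinucleotides, with 66.7% G and C and an observed to expected CpG ratio of 0.87. Of 33469 rat promoters of the same length, 88.5% held fewer CpGs, and their median was 7. The hexamer GGGCGG, the core of a GC box, was found once on each strand and in 33.1% of all promoters on either strand, whereas TATAAA was not in these letters and CAGAC, a Smad box, was not either (14.2% and 50.1% of promoters on either strand). The positions of RN4 and GRCr8 cannot be matched here, so whether the captured promoter region covers these bases is not known. The 30-base stretches richest in CpG upstream of the start are shown with each CpG, the dinucleotide that the capture protein reads when methylated, in capitals.
Tgfbi stretch A, chr17:7990273-7990302, GRCr8, minus strand: tgCGaagtgggagggCGtgtgtgagcCGCG
Tgfbi stretch B, chr17:7990199-7990228, GRCr8, minus strand: ggaggCGcCGgctgcccttcccctccctCG
Tgfbi stretch C, chr17:7990140-7990169, GRCr8, minus strand: agCGCGCGctgcccCGcCGctctcacttCG
Stretch A holds 4, stretch B 3 and stretch C 6 CpGs.

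Captured DNA was spread over the whole window without a peak at Tgfbi. The 122 regions covered 80963 bp, with lengths between 223 and 2474 bp, and the longest gap between neighbouring regions was 12.0 kb, from 14031451 to 14043447 upstream of the gene. The table lists only regions in which at least one pair of libraries differed, so a gap does not show unmethylated DNA. Per kb of region, the mean CPM of the tested regions ran from 2.86 to 7.05 with a median of 4.65, and the gene body region with 4.70 and the promoter region with 4.80 lay close to that median. The regions with the highest mean CPM, a sum over the region that is not scaled to its length, were all in the flanks. They lay at 14011753-14014002 with a mean of 10.3 CPM, at 13848594-13851068 with 8.72 CPM and at 13963484-13964612 with 7.87 CPM, and their log2 fold changes of -0.05, 0.19 and 0.08 did not pass the test. In the same order they were 2249, 2474 and 1128 bp long and held 4.56, 3.525 and 6.98 CPM per kb. Only the last of them was above the median per kb.

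**Figure D1:**
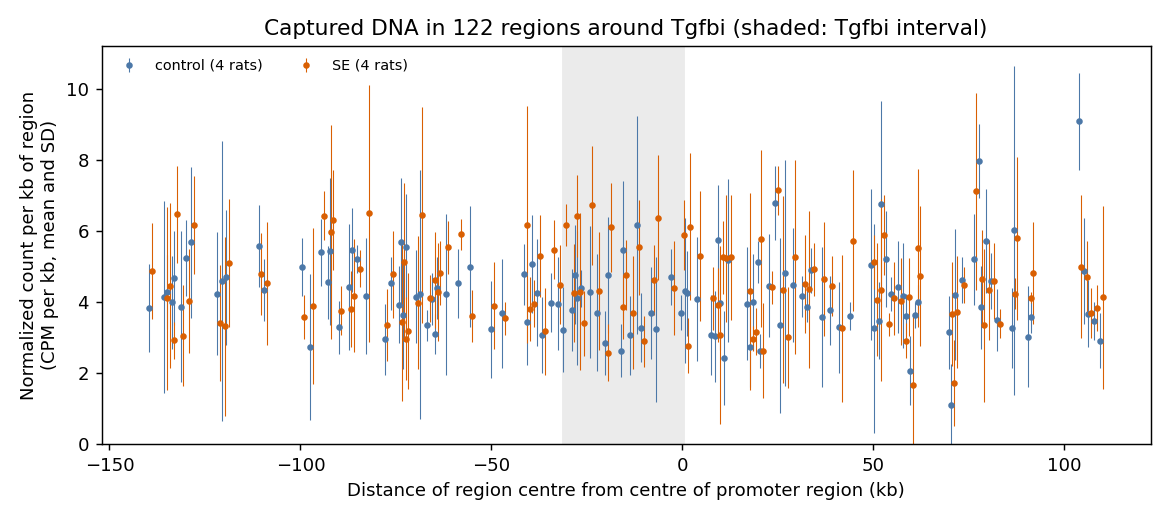
Normalized count per kb of region (CPM per kb, mean and SD of 4 rats) for all 122 regions of the window, by distance in kb from the centre of the promoter region, with positive distances upstream of the gene. Control and SE means lie at similar levels in most regions of both flanks and of the shaded Tgfbi interval. Inside the interval SE means are higher in the gene body region, the promoter region and the region 6.6 kb below it, among others. Mean levels of the tested regions, taken over all 8 rats and not by group, lie between 2.86 and 7.05 CPM per kb.

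The gene body region rose in SE rats. It held 9, 14, 6 and 9 tags in control rats 1, 3, 4 and 5, and 19, 18, 20 and 20 tags in SE rats 6, 8, 9 and 10. In normalized counts the control rats had 2.18, 3.46, 1.55 and 1.86 CPM and the SE rats 4.39, 4.32, 4.83 and 3.82 CPM. Every SE rat therefore lay above every control rat, with control rat 3 the nearest to the SE rats. SE rats averaged 4.34 ± 0.413 CPM (SD, n = 4) against 2.26 ± 0.838 CPM (SD, n = 4) in controls, a log2 fold change of 0.93 ± 0.33 (standard error). It passed the threshold of 0.01, but not the stricter 0.001, in the quasi-likelihood test of edgeR, where it ranked 2837 of the 291987 regions by p and had an adjusted p = 0.572 (Benjamini-Hochberg over all tested regions), and edgeR's exact negative binomial test gave p = 0.00568. The call rests on a margin that single libraries decide. It was lost without control rat 1 (log2 fold change 0.92), control rat 4 (0.80), control rat 5 (0.84), SE rat 6 (0.92) or SE rat 9 (0.89), and also with the Wald test of DESeq2 (0.94).

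The promoter region had the same direction and did not pass the threshold of 0.01. Control rats 1, 3, 4 and 5 had 3.63, 3.95, 3.62 and 4.76 CPM from 15, 16, 14 and 23 tags. SE rats 6, 8, 9 and 10 had 4.86, 6.96, 6.28 and 7.26 CPM from 21, 29, 26 and 38 tags. The groups did not overlap, although SE rat 6 and control rat 5 were almost level. SE rats averaged 6.34 ± 1.07 CPM (SD, n = 4) against 3.99 ± 0.534 CPM (SD, n = 4) in controls, a log2 fold change of 0.66 ± 0.26 (standard error; adjusted p = 0.620 in edgeR's quasi-likelihood test). By p it ranked 5607 among all tested regions, and the exact negative binomial test of edgeR gave p = 0.0130. Without control rat 5 or without SE rat 6 the log2 fold change was 0.77 and passed the threshold.

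A further region between them, at chr17:13932527-13933161 and 6.6 kb below the promoter region, was the other region of the window that rose in the same test. Its normalized counts were 3.87, 1.24, 1.03 and 2.07 CPM in control rats 1, 3, 4 and 5 and 4.86, 3.60, 5.07 and 2.67 CPM in SE rats 6, 8, 9 and 10. The groups overlapped, because control rat 1 lay above SE rats 8 and 10. The counts behind these values were low, with 35 tags over the control and 71 over the SE rats. The log2 fold change was 0.94 ± 0.35 (standard error; adjusted p = 0.600 in edgeR's quasi-likelihood test), and edgeR's exact test gave p = 0.00898. Without control rat 1 it was 1.42, which passed the stricter cut-off of 0.001 (edgeR's quasi-likelihood test, unadjusted p = 0.000726, adjusted p = 0.311). It was no longer called without control rat 3 (0.77), control rat 4 (0.74), control rat 5 (0.95), SE rat 6 (0.84), SE rat 8 (0.99) or SE rat 9 (0.83), nor with DESeq2 (0.96).

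In all, 2 of the 75 tested regions of the window were called as hypermethylated in SE rats, where 0.584% of all tested regions were, and 0 as hypomethylated, where 1.07% were, for a share of either direction over the genome of 1.65%. The gene body region, picked by the study in these libraries, is 1 of the 2, so nothing is read from this count, and without the regions of the study it was 1 of 73 (1.37%). With the cut-off on the unadjusted p set at 0.05, edgeR's test found that 3 regions were higher and 2 lower. Together they were 6.67% of the tested regions of the window, beside 6.9% of all tested regions (2.93% higher and 3.97% lower). At the threshold of 0.01, DESeq2 called 0 regions of the window and 0.488% of all tested regions. The smallest adjusted p in the window was 0.572, so no region passed an adjusted p of 0.05. Without control rat 4 or without SE rat 9 the number called was 0, and it was 1 without control rat 1, control rat 3, control rat 5, SE rat 6 or SE rat 8. Of all tested regions, between 1.33% and 2.01% were called when any 1 of the 8 rats was left out. Without control rat 5 or SE rat 6 the region called was the promoter region of the study, and neither of the 2 above.

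**Figure D2:**
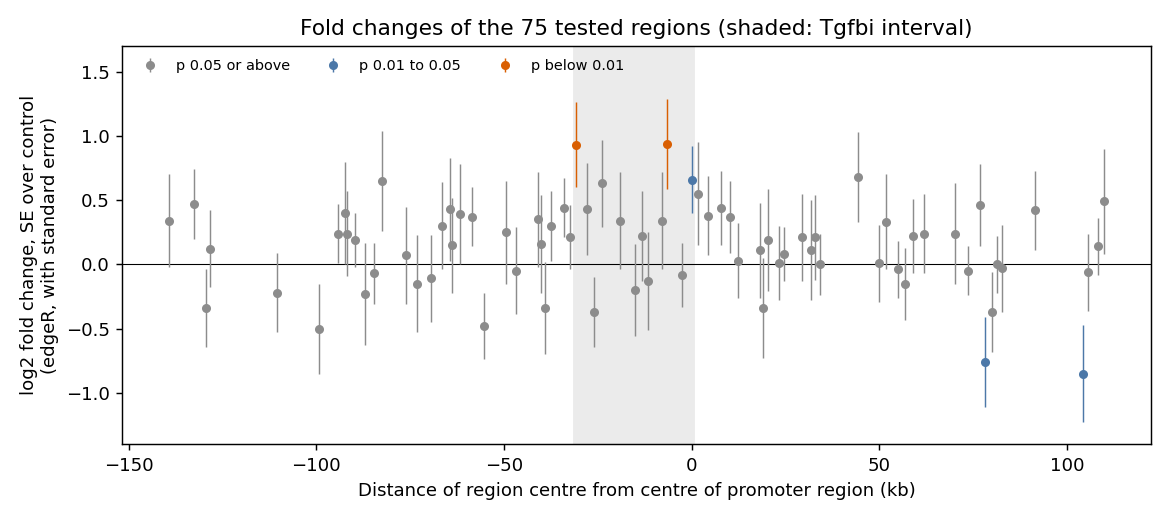
Log2 fold change of SE over control with its standard error (edgeR) for the 75 tested regions, by distance in kb from the centre of the promoter region. The regions with p below 0.01 (0.93 and 0.94) and the promoter region (0.66, at distance 0) lie in the shaded Tgfbi interval, and the 2 lowest fold changes (-0.76 and -0.85) lie in the upstream flank.

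Between the gene body and promoter regions, the interval of 31.8 kb held 18 regions, 12 of them tested, and not all moved one way. Apart from the regions of the study, 6 of the other 10 tested regions had a log2 fold change above 0 and 4 below, with a median of 0.28 and a range from -0.37 to 0.94. None of the 10 had groups that did not overlap. The next tested region from the gene body region, at 13911408-13911869, had control values of 3.14, 1.73, 2.07 and 1.86 CPM and SE values of 3.70, 2.88, 2.41 and 2.87 CPM (log2 fold change 0.43 ± 0.36, standard error), and only control rat 1 reached into the SE range. On the other side, at 13906438-13907784, the groups overlapped, at 6.05 ± 1.50 CPM in SE rats and 5.34 ± 1.75 CPM in controls (SD, n = 4 each). Both neighbours of the promoter region also overlapped between groups. The neighbour on the side of the gene body region, at 13936171-13937338, had 5.14 ± 1.53 CPM in SE rats and 5.49 ± 0.918 CPM in controls (SD, n = 4 each). Its log2 fold change was -0.08, and the sign turned without control rat 3 or SE rat 9. Whether this neighbour lies inside the gene is not known without an RN4 annotation. Upstream, at 13940795-13941192, control rats had 1.69 ± 0.477 CPM and SE rats 2.43 ± 0.821 CPM (SD, n = 4 each), a log2 fold change of 0.55 ± 0.40 (standard error) that did not pass the test.

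**Figure D3:**
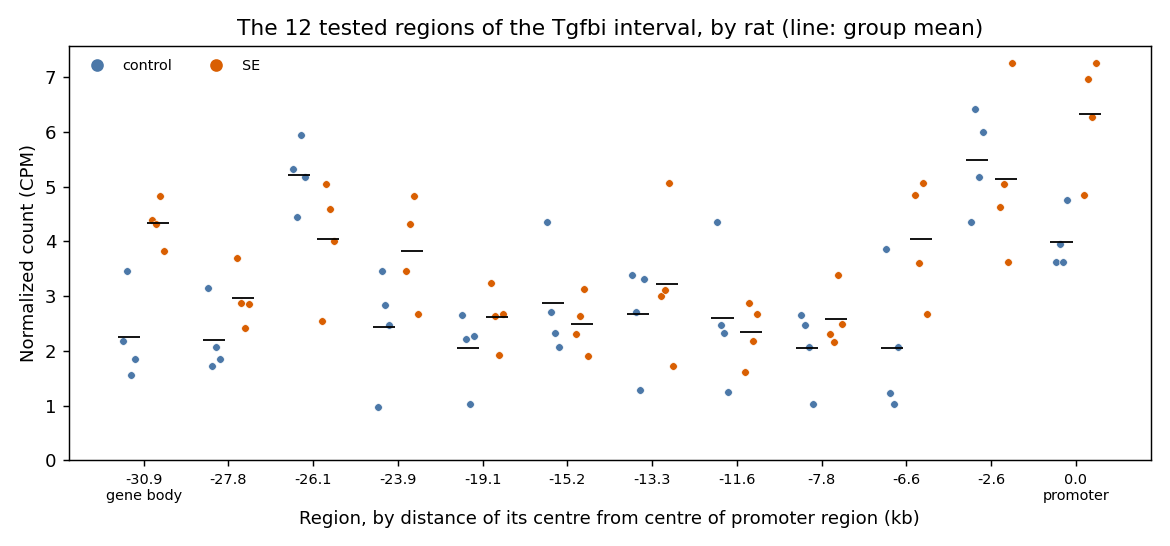
Normalized count (CPM) of each control and SE rat in the 12 tested regions of the Tgfbi interval, ordered by the distance in kb of each region's centre from that of the promoter region, with a line at each group mean. The SE rats lie between 3.82 and 4.83 CPM in the gene body region and between 4.86 and 7.26 CPM in the promoter region, above all control rats, while the groups overlap in the other 10.

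Summed over segments, the gain was larger in the Tgfbi interval than in the flanks by value, and a test of that difference was not made. In the interval, control rats 1, 3, 4 and 5 had 49.1, 46.5, 39.8 and 45.3 CPM and SE rats 6, 8, 9 and 10 had 51.6, 55, 56.2 and 52.9 CPM. All 4 SE rats lay above all control rats, with control rat 4 the lowest, and the sum includes both regions of the study. The difference of the mean log2(CPM + 0.1) was 0.26 (exact two-sided permutation test, p = 0.0286, the smallest that 4 rats against 4 can give, adjusted p = 0.0857 over 3 segments). Without the 2 regions of the study, an alternative chosen after the data were seen, the other 16 regions of the interval gave 38.9 ± 3.52 CPM in control and 43.2 ± 1.49 CPM in SE rats (SD, n = 4 each), a difference of 0.16 (exact permutation p = 0.0857), and 2 of the 4 SE rats then exceeded every control rat. Beyond the gene body region, the 47 regions of the lower flank had 134 ± 9.63 CPM in control and 142 ± 4.51 CPM in SE rats (SD, n = 4 each; difference 0.09, exact permutation p = 0.257). The 57 regions of the upstream flank had 163 ± 9.21 CPM in control and 171 ± 6.84 CPM in SE rats (SD, n = 4 each; difference 0.07, exact permutation p = 0.229), and in both flanks the groups overlapped.

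**Figure D4:**
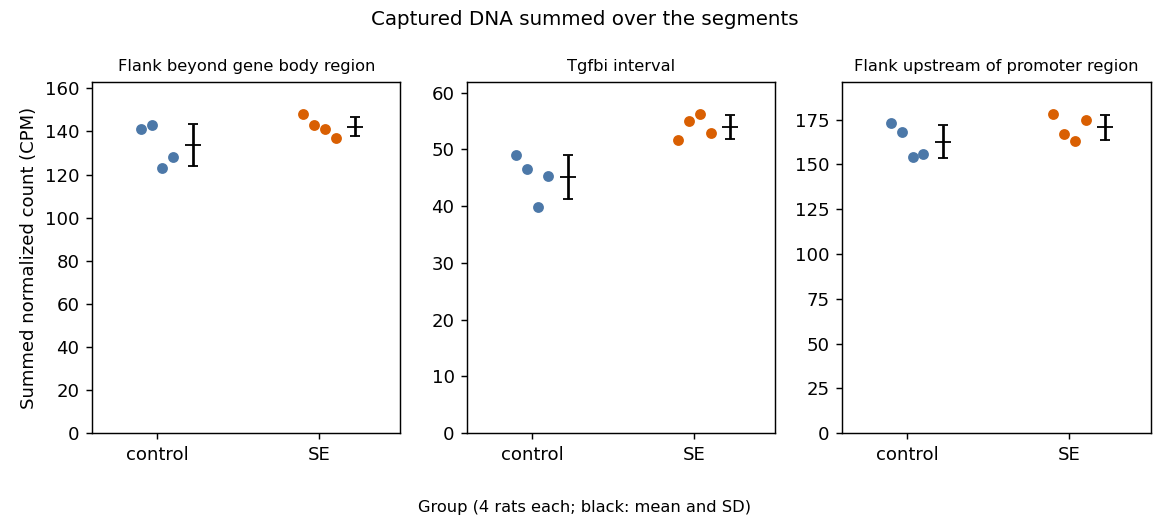
Summed normalized count (CPM) of the lower flank, the Tgfbi interval and the upstream flank for each of 4 control and 4 SE rats, with the mean and SD in black. The groups are apart in the Tgfbi interval, where control rats reach 49.1 CPM and SE rats start at 51.6 CPM, and overlap in both flanks. The interval sum includes the 2 regions that the study picked for a difference in these libraries. Without them the groups overlap there too, with 2 of the 4 SE rats above every control rat.

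The tilt toward higher counts in SE rats was not limited to the regions called. Of the 75 tested regions, 51 (68.0%) had a log2 fold change above 0, against 50.3% of all tested regions, with a median of 0.19 in the window. The shares were alike along the window, with 20 of 30 regions in the lower flank, 8 of 12 in the interval and 23 of 33 upstream. When all tags of the window were summed as 1 bin and fitted beside 10469 bins of this size along the genome, the log2 fold change was 0.15 ± 0.06 (standard error; adjusted p = 0.0491 in edgeR), where 22.3% of all bins and 12.1% in this direction had an adjusted p below 0.05. The neighbouring sequence moved alike. Over the window's bin and the 4 bins on either side, all 9 log2 fold changes were above 0, between 0.05 and 0.20, and 6 of the 9 passed.

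The density of captured regions moved with this tilt, and its part in it was not tested beyond the offsets given here. The tested regions of the window had a median of 50 other regions of the table within 50 kb, against 33 over all tested regions, a value above that of 87.2% of these. For each library, the deviation of its log2 CPM from the mean of the 8 libraries in a region was fitted on log2 of this density. The slope lay between 0.0215 and 0.0859 in the SE rats. In the control rats it lay between -0.11 and 0.022, with control rat 1 the highest. Such slopes are relative to the mean of the libraries, so higher slopes in one group go with lower slopes in the other. They do not show that counts fell with density in any library. With offsets that removed these slopes, the median log2 fold change of the window was 0.10. The gene body region had 0.84, the region 6.6 kb below the promoter 0.86 and the promoter region 0.56. With these offsets edgeR called 0 regions of the window and 1.26% of all tested regions. The summed bin then had a log2 fold change of 0.01 (adjusted p = 0.885), with offsets on the number of regions per bin chosen after the data were seen. Its call was also lost with library totals (0.12, adjusted p = 0.0774) and when any 1 of the 8 rats other than control rat 1 was left out, with values between 0.11 without control rat 4 and 0.17 without control rat 3 or SE rat 9.

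Complete separation of the groups was seen in 6 of the 75 tested regions (8.0%), against 3.63% of all tested regions. In 4 of them SE rats were higher, where the genome-wide share was 1.69%, and in 2 they were lower, where it was 1.94%. Both regions of the study, chosen for a difference in these libraries, are among the 4, so part of this share was fixed by that choice, and without them it was 4 of 73 (5.48%), 2 in each direction. The higher regions were the gene body and promoter regions and a region in each flank. At 13880407-13881624, 58.4 kb from the promoter region and beyond the gene body region, control rats had 4.59, 6.67, 4.40 and 6.41 CPM and SE rats 7.17, 7.92, 7.0 and 6.69 CPM, so that SE rat 10 and control rat 3 were almost level. At 13983445-13984054, 44.4 kb upstream, control rats lay tightly between 1.93 and 2.47 CPM, and SE rats had 2.54, 3.60, 2.66 and 5.16 CPM. SE rat 10 set this mean, and the log2 fold changes of these flank regions, 0.37 and 0.68, did not pass the test.

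Both regions with lower counts in every SE rat lay far upstream of Tgfbi. At 14017275-14017702, 78.1 kb upstream, control rats 1, 3, 4 and 5 had 3.38, 3.46, 2.85 and 3.93 CPM and SE rats 6, 8, 9 and 10 had 2.54, 1.92, 1.21 and 2.29 CPM. The log2 fold change was -0.76 ± 0.35 (standard error; adjusted p = 0.695 in edgeR), short of the threshold. At 14043447-14043790, 104.2 kb upstream, control rats had 3.38, 2.47, 3.10 and 3.52 CPM and SE rats 2.31, 1.92, 0.724 and 1.91 CPM, a log2 fold change of -0.85 ± 0.38 (standard error; adjusted p = 0.678 in edgeR) that also fell short. It had the highest CPM per kb of the tested regions of the window, 7.05, and lay at the end of the 12.0 kb gap. Among the 47 regions below the filter, 1 had groups that did not overlap, at 13992987-13993431, with 39 tags over the control and 27 over the SE rats, a share of 2.13% beside 3.37% of all regions below the filter (2.24% lower in SE rats).

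The regions whose log2(CPM + 0.1) followed that of the promoter region most closely over the 8 libraries were spread over the window. They were the flank region 44.4 kb upstream (Pearson's r = 0.82), the flank region beyond the gene body region (0.76) and the gene body region (0.70). All of these also separated the groups, as the promoter region did, and the values of 1 library share its depth and density slope. The immediate neighbours of the promoter region were less like it, with r = 0.08 on the side of the gene body region and 0.55 upstream. The median over the other 74 tested regions was 0.13.

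The discarded rats bear on the gene body region and less on the promoter region. With all 10 libraries on a common scale, control rat 2 had 4.32 CPM in the gene body region, where the 4 control rats used had 1.60 to 3.58 CPM and the 4 SE rats used 3.93 to 4.95 CPM. The groups then overlapped, and the log2 fold change of 0.67 was not called (adjusted p = 0.914 in edgeR). In the promoter region control rat 2 had 4.90 CPM and SE rat 7 had 5.58 CPM, beside 3.72 to 4.94 CPM in the control and 4.99 to 7.46 CPM in the SE rats used, so that all 5 SE rats stayed above all 5 control rats, with a log2 fold change of 0.55 that was not called either (adjusted p = 0.914 in edgeR). This was not particular to the promoter region. At 14017275-14017702 and 14043447-14043790, far upstream, all 5 SE rats stayed below all 5 control rats. Their log2 fold changes over 10 rats were -0.9 and -0.69, also not called. The share of all tested regions with separate groups over 10 rats was not computed, so nothing is read from these separations. With all 10 libraries, 0 of the 287564 regions tested over the genome had an adjusted p below 0.05 in edgeR. The summed Tgfbi interval had 49.4 CPM in control rat 2 and 65.9 CPM in SE rat 7, and its difference of 0.28 then had an exact permutation p of 0.00794, the smallest that 5 rats against 5 can give (adjusted p = 0.0238). Without the regions of the study, again chosen after the data were seen, the difference over 10 rats was 0.21 (exact permutation p = 0.0238, adjusted p = 0.0714), and 3 of the 5 SE rats lay above all control rats. SE rat 7 was also the highest of the 10 rats in both flanks, with 154 CPM in the lower and 226 CPM in the upstream flank. Its profile was uneven, however, because it lay above the 4 control rats used in 53 of the 122 regions and below them in 19, and had 0 tags in 5. At 13983445-13984054 it had 0 tags, where these control rats had 1.98 to 2.56 CPM, and at 13963484-13964612 it had 1.42 CPM, where they had 7.09 to 9.68 CPM and control rat 2 had 17.3 CPM.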

How the data were processed

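Hippocampal DNA of 4 control and 4 SE rats was analysed from the deposited tag counts per region, which the authors left without normalization. According to the methods, reads were mapped to RN4 by BWA, all library pairs were compared in MACS, differing regions were merged by BEDTools, duplicates were dropped and tags counted. Coordinates are as deposited, and RN4 is the build of the methods and labels. Every column belonged to a labelled rat.

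Regions at or above the 50th percentile of summed counts were normalized by TMM and tested with edgeR's quasi-likelihood F test (version 4.0.16, under R 4.3.3) in a model of condition alone. A standard error is the log2 fold change over the root of its F statistic. Bins needed at least 100 tags over the 8 libraries and took their own TMM factors. Sums over segments were compared on log2(CPM + 0.1) with exact permutation tests. The common dispersion was 0.0336. Intervals are not given. The standard errors rest on a variance that edgeR moderates across all tested regions, or bins, and that includes the counting error. They need not reflect how far the rats differ in a single region.

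Named regions were the 2 regions of the study, those with p below 0.01, the 3 with the highest mean CPM, those whose groups did not overlap, the tested neighbours of the 2 regions and the 3 most correlated with the promoter region. Window, regions and tests were chosen with earlier results of these data known. The alternatives were edgeR's exact test, DESeq2 (version 1.42.0), library totals, upper-quartile, loess (limma version 3.58.1) and density offsets, other filters, all 10 libraries and each rat left out. Genes of RN4, the mRNA libraries and the other models were not analysed here.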

Additional observations from a re-analysis of the deposited data

Results flagged for a closer look

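Of 34 groups of 4 values examined with Dixon's criterion, 3 held a rat far from the other 3 of its group, where chance flags about 1 in 20. Control rat 1 had 10.9 CPM in the region at 13848594-13851068, the highest of the control rats. SE rat 6 had 9.25 CPM at 13963484-13964612, the highest of the SE rats. SE rat 9 had 0.724 CPM at 14043447-14043790, the lowest of the SE rats in a region where all of them were below the control rats.

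The discarded SE rat 7, which entered no comparison of the 8 libraries, lay above the 4 control rats used in both Tgfbi regions and in the sums of all 3 segments, but below them in 19 of the 122 regions of the window. On the scale of all 10 libraries it had 4.17 CPM in the gene body region and 5.58 CPM in the promoter region. Its sums were 154 CPM in the lower flank, 65.9 CPM in the Tgfbi interval and 226 CPM in the upstream flank. It was below these control rats with 0 tags at 13983445-13984054 (controls 1.98 to 2.56 CPM) and with 1.42 CPM at 13963484-13964612 (controls 7.09 to 9.68 CPM). The discarded control rat 2 had 147, 49.4 and 171 CPM in these segments. The reason for discarding both rats is not given in the sources used here.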

How the results depend on the processing

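The number of regions of the window called at p below 0.01, 2 in the test reported, was 0 with DESeq2 and with density offsets and 1 with all 10 libraries, and it ran from 0 to 2 when 1 rat was left out. The share called of all tested regions was 1.65% in the test reported, 0.488% with DESeq2, 1.26% with density offsets and 0.497% with all 10 libraries. It was 1.33% to 2.01% when 1 rat was left out. The region called with all 10 libraries was neither of the 2 called in the test reported, nor the promoter region. The number called in the window was also 0 with at least 10 counts in every library, a filter that removed both called regions before testing and left 25. With this filter 2.01% of all tested regions were called. The gene body region kept its direction, with log2 fold changes of 0.94 with DESeq2, 0.84 with density offsets and 0.67 with all 10 libraries, all no longer called, and 0.80 to 1.20 without 1 rat. The promoter region passed with upper-quartile factors (0.68) and had 0.59 to 0.77 without 1 rat. The bin lost its call with library totals (0.12), upper-quartile factors (0.08), all 10 libraries (0.23), tested regions only (0.17) and density offsets on bins (0.01), and had 0.11 to 0.19 without 1 rat. With all 10 libraries 0 of the 10579 bins of the genome passed, so that lost call is not particular to this bin. The summed Tgfbi interval, which includes both regions of the study, passed with all 10 libraries (0.28). Without these regions it did not pass with all 10 libraries (exact permutation test, adjusted p = 0.0714). With these regions included, the difference was 0.20 to 0.30 without 1 rat, a value with no test. The cause of these changes was not tested. Signs turned in regions near no change, to 0.01 and 0.06 without control rat 3 or SE rat 9 at 13936171-13937338 (-0.31 to 0.06 without 1 rat), to -0.02 with density offsets and -0.55 with all 10 libraries at 13963484-13964612, and to 0.29 with all 10 libraries and 0.03 without control rat 5 or SE rat 10 at 14011753-14014002 (-0.14 to 0.03 without 1 rat). Of the other values, 180 of single named regions and 44 of the counts, sums and study regions kept direction and side of the threshold or, for counts, stayed within 1.5 times, and the 24 sums without 1 rat, which have no test, moved by less than 1 SD between rats. Tags per region and rat were few, so small differences in single regions were not detectable at this depth. No paired analysis was possible because the groups share no rat number.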
